A study of Homo sapiens with 4 samples.

Results

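The regions described here are windows of 1 kb that lost only part of their DNA methylation in HUDEP-2 cells given a DNMT1 inhibitor. Non-overlapping windows of chromosomes 1 to 22 were taken with at least 5 CpGs listed in all 4 deposited tables. A window was chosen when its methylation level, the methylated reads over all reads of its CpGs, was 80% or more in the library of non-differentiated cells (NonDiff in the labels) and 50% or more after DNMT1 inhibition. The rule found 6411 windows, which are 1.29% of the 498660 windows at 80% or more in NonDiff and 0.344% of all 1861567 windows. They are called resistant below only in the sense of this rule, and the remaining 492249 windows at 80% or more are called other windows. The windows were thus chosen by their measured NonDiff and DNMT1 inhibitor levels, which are given as a description.

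HUDEP-2 is an immortalised line of human red cell precursors, in which the labels report adult haemoglobin without treatment and more fetal haemoglobin with either inhibitor. Of the 4 libraries, NonDiff came from untreated cells before differentiation. The other 3 came from differentiated cells that received the DMSO vehicle, a DNMT1 inhibitor or an EED inhibitor. Compounds, at a final 0.1% DMSO, were present from expansion to the end of culture, over 3 to 4 days of expansion, a 4-day growth stage and a 2-day maturation stage, with doxycycline in the medium of every stage, per the labels' protocols. Compound names and doses are not given in the sources used here, and one line with 1 library per group is the whole material, so no spread between replicates could be measured. DNA was converted with bisulfite, after which unmethylated cytosine reads as T and methylated cytosine as C. Unconverted cytosine would also read as C, and the conversion rate is not given in the sources used here and was not checked.

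CpG methylation is copied onto new DNA at each division by DNMT1, which UHRF1 recruits to sites methylated on one strand only. DNMT3A and DNMT3B add methylation without such a template. When DNMT1 is blocked, methylation is diluted as cells divide, and what remains in a region reflects both how much is copied despite the block and how much is added anew. EED belongs to Polycomb repressive complex 2, whose histone H3 mark lies mostly away from densely methylated DNA.

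Mean coverage of a listed CpG on chromosomes 1 to 22 was 27.6 reads in NonDiff, 28.4 in DMSO, 29.4 after DNMT1 inhibition and 30.2 after EED inhibition. The tables shared 22761441 CpGs, 91.6% of those listed in any of them, and their levels over these CpGs were 61.8%, 60.3%, 16.8% and 59.3% in the same order. As a check of the cell type, promoters of erythroid marker genes were compared with those of other blood lineages. In DMSO, 14 of 16 erythroid promoters were under 50%, with a median of 16.0%, and 8 of 18 promoters of other lineages were, with a median of 54.5%. The exceptions among erythroid genes were SLC4A1, the anion exchanger of the red cell membrane, at 83.5%, and EPOR, the erythropoietin receptor, at 50.5%.

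Stretches of 200 bases are shown first, because the sequences themselves carry much of what follows. Each is the part of a window with the most CpGs listed in all tables, outside annotated UTRs, on the plus strand of hg38, with each CG in capitals. The first 6 come from resistant windows. The last comes from an other window of 51 or more CpGs, shown for its low DNMT1 inhibitor level.
BRF1 intron, chr14:105239001-105239200: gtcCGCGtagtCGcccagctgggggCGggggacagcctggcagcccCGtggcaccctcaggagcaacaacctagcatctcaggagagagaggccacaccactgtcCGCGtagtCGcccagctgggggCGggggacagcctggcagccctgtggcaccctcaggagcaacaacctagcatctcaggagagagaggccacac
ATP11A intron, chr13:112787001-112787200: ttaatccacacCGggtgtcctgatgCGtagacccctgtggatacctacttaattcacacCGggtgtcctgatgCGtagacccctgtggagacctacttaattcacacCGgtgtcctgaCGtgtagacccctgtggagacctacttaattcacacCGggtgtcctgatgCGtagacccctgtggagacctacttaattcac
PRKXP1 pseudogene, chr15:100555308-100555507: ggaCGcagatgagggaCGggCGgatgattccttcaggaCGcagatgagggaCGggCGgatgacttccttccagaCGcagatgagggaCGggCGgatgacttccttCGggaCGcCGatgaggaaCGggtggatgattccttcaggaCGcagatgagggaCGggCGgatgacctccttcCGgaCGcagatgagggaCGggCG
RB1 intron, in PPP1R26P1, chr13:48317481-48317680: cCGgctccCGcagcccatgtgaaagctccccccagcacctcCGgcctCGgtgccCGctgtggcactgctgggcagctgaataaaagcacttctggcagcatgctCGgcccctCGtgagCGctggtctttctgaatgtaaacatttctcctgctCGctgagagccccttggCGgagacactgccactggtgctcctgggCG
KBTBD13 coding exon, chr15:65077508-65077707: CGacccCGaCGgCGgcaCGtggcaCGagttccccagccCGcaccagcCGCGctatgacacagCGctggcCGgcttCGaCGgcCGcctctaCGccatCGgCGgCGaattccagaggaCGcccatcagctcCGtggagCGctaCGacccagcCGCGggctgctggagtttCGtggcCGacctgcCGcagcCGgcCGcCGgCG
ITGB1 intron, chr10:32968193-32968392: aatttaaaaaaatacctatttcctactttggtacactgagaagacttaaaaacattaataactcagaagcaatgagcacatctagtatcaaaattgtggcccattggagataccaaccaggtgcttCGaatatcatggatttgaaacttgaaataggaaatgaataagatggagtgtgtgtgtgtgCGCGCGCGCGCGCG
MAFG exon, other window, chr17:81922732-81922931: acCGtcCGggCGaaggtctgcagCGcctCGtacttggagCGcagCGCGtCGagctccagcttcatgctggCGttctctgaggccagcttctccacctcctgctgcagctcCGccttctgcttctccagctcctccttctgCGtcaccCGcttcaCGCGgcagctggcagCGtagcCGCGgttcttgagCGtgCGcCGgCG

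The BRF1 window repeats itself, with 99.4% of its bases identical to the base 102 positions further on, and the ATP11A and PRKXP1 windows do so less exactly, with 73.5% identity at 48 bases and 69.5% at 71 bases. The RB1 and KBTBD13 windows are not tandem repeats. In the ITGB1 window 8 CpGs lie in the stretch shown, most of them back to back in one run at its end. The whole BRF1 window read 94.6% in DMSO and 67.3% after DNMT1 inhibition, and the KBTBD13 window 86.8% and 60.9%. The MAFG window, which has 54 shared CpGs, read 91.4% and 15.3%, so many CpGs in a window did not always go with a high remaining level.

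Resistant windows were lower after DNMT1 inhibition than in DMSO in nearly all cases, so the name stands for a partial loss. Their median level was 95.1% in NonDiff, 94.2% in DMSO, 93.9% after EED inhibition and 53.0% after DNMT1 inhibition. Other windows stood at 91.7%, 90.3%, 90.2% and 26.0% in the same order. Resistant windows were thus also the more methylated ones in the DMSO and EED inhibitor libraries. The rule did not use these libraries, but their levels lay close to the NonDiff level, which it did use. Their higher levels are thus no independent result.

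**Figure D1:**
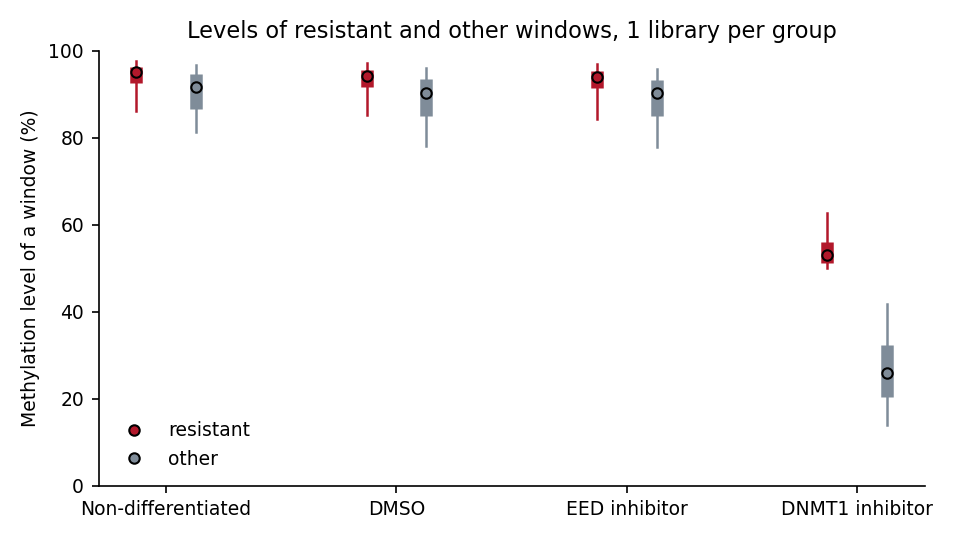
Methylation level of 1 kb windows in each of the 4 libraries (vertical axis, percent), for resistant windows (red, n = 6411) and other windows at 80% or more in NonDiff (grey, n = 492249). Circles are medians, thick bars run from the lower to the upper quartile and thin lines from the 5th to the 95th percentile over windows. The red medians lie at 95.1%, 94.2%, 93.9% and 53.0%, above the grey ones in each library, and the gap after DNMT1 inhibition follows from the rule.

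The distribution of levels had no gap at the threshold. Among windows at 80% or more, 11049 had a DNMT1 inhibitor level from 45% to below 50% and 4388 from 50% to below 55%. The latter made up 68.4% of resistant windows. A level of 60% or more was found in 624 of them (9.73%) and of 70% or more in 51 (0.796%). Among the windows nearest the threshold were one in an intron of ZNF148 on chromosome 3 (125343001 to 125344000), at exactly 50%, and one at the TERB1 promoter on chromosome 16 (66801001 to 66802000), just outside at 49.96%. At the other threshold, a window at 78779001 to 78780000 on chromosome 2 stood at exactly 80% in NonDiff, and one in PCDH8P1 on chromosome 13 (53200001 to 53201000), with 53.9% left, missed it at 79.9%.

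**Figure D2:**
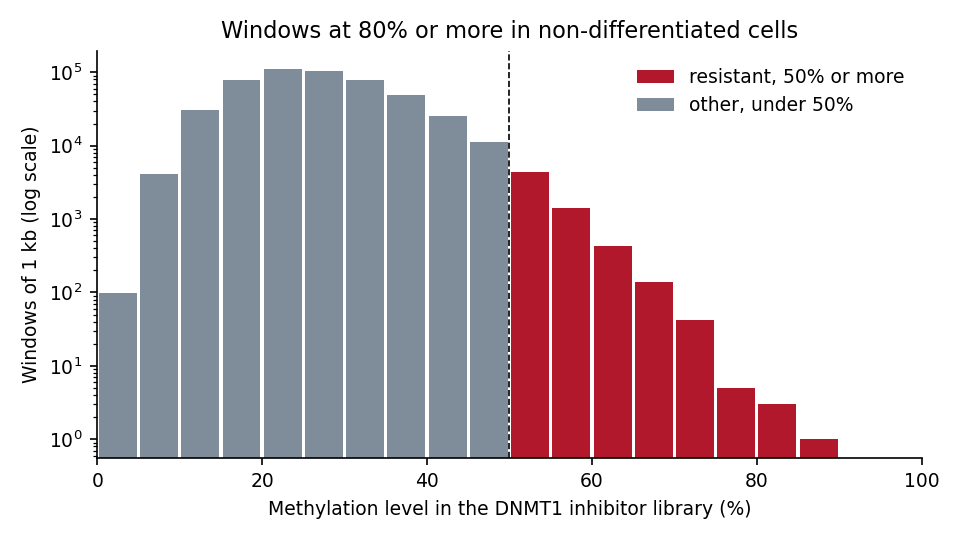
Number of 1 kb windows (vertical axis, log scale) by methylation level after DNMT1 inhibition (horizontal axis, percent, in steps of 5), among windows at 80% or more in NonDiff. Red bars are the resistant windows at 50% or more, and the dashed line marks the threshold. The bars fall smoothly across it, from 11049 to 4388 windows.

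Counting error was of the same order as the distance of many windows from 50%. A resistant window had a median of 387 reads after DNMT1 inhibition, each read counted once at every CpG it covers, and its 95% Wilson interval had a median width of 9.87 points. In 1999 resistant windows (31.2%) the interval lay wholly at or above 50%. Sampling of reads is the one error these intervals include, and they treat each of these counts as an independent molecule. PCR copies and counts of 1 read at several CpGs are not independent, so the intervals are too narrow and the 1999 windows are an upper count. A reading on CpGs that did not choose the window was also made: in windows of 10 or more CpGs, every other CpG was used for the rule and the rest were read. The 5587 windows chosen in this way had a median of 53.1% on the choosing CpGs and 49.9% on the CpGs left out. Of them, 50.0% were at 50% or more on the CpGs left out, against 1.24% of windows not chosen, whose median was 27.0%. The left-out CpGs alternate with the choosing ones in the same windows and library, and neighbouring CpGs share reads. The gap between chosen and not chosen windows thus follows largely from the choice and is given as a description.

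Coverage was lower in resistant windows. The median over windows of the mean coverage was 23.4 reads in NonDiff, 23.4 in DMSO, 24.8 after DNMT1 inhibition and 24.6 after EED inhibition, and 27.2, 27.6, 29.1 and 29.2 reads in the same order in other windows. Resistant windows made up 8.52% of windows with a mean under 15 reads after DNMT1 inhibition and 0.654% of those over 40 reads. In windows of 11 to 20 CpGs these shares were 6.38% and 0.663%. The part of coverage in the choice of windows was not tested beyond these values and the alternative with at least 20 reads per CpG.

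Single CpGs of resistant windows were spread over a wide range of levels. Of their 129069 shared CpGs, 33.9% lay from 40% to below 60% after DNMT1 inhibition, 11.05% at 80% or more and 4.68% under 20%. In other windows these shares were 18.3%, 0.526% and 35.9%. In DMSO, 93.7% of the CpGs of resistant windows were at 80% or more. The tables hold no single reads, so fully methylated molecules mixed with unmethylated ones, and partly methylated molecules, cannot be told apart.

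Neither of the comparisons that leave out the DNMT1 inhibitor called a resistant window at the limit of 25 points. Reads of 2 libraries were set against each other in each window with Fisher's exact test, two-sided, adjusted by Benjamini-Hochberg over all 1861567 windows, and called at an adjusted p under 0.01 with a difference of at least 25 points. These tests compare libraries, not conditions. For the EED inhibitor against DMSO, no resistant window was called lower, against 0.0105% of all windows (196), and none higher, against 0.00355% (66). Of the 492249 other windows, which share the start level, 3 were called lower and 1 higher. Most resistant windows were too high in DMSO, at a 5th percentile of 85.1%, for a rise of 25 points, so nothing is read from the absence of higher calls. Lower calls were so rare among all windows and other windows that nothing is read from their absence either. A read that covers several CpGs is counted at each, and when reads were divided by the number of CpGs, no window of any kind was called, in place of 262. With at least 10 CpGs per window 20 were. The limit of 25 points was then left out in the main setting. By Fisher's exact test for the EED inhibitor, 9 of 6411 resistant windows had an adjusted p under 0.01. So did 493 of 492249 other windows and 5832 of all 1861567 windows. For DMSO against NonDiff the counts were 6 resistant, 167 other and 762 of all windows. Nothing is read from these counts. For the EED inhibitor, 658 resistant windows (10.3%) had an unadjusted p under 0.05 by Fisher's exact test. The shares were 10.1% of other windows and 13.2% of all windows. The difference in resistant windows, EED inhibitor minus DMSO, had a median of −0.27 points, with 5th and 95th percentiles of −4.36 and 3.67 points and extremes of −19.9 and 20.5.

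For DMSO against NonDiff, no resistant window was called lower or higher, against 0.000913% and 0.000376% of all windows. The count of 24 windows became 0 under the same division of reads, 6 with CpGs of at least 20 reads and 4 with at least 10 CpGs per window. The rule used the second of these libraries, so nothing is read from that count. For this comparison, 711 resistant windows (11.1%) had an unadjusted p under 0.05, beside 11.9% of other windows and 9.19% of all windows. The median difference was −0.78 points, and −1.40 points in other windows. The DNMT1 inhibitor level was also part of the rule. Against DMSO, 6261 of 6411 resistant windows (97.7%) were called lower, beside 85.7% of all windows and 492235 of the 492249 other windows, and none was called higher, beside 0% of all windows.

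The highest level after DNMT1 inhibition differed from that in DMSO by 0.074 points. Its window lies in the long non-coding RNA gene ENSG00000223727 on chromosome 3 (3459001 to 3460000) and read 84.3% in NonDiff, 89.2% in DMSO, 89.2% after DNMT1 inhibition (interval 79.4 to 94.7) and 90.4% after EED inhibition. It had 5 of 7 CpGs in all tables and a mean coverage of 13 reads after DNMT1 inhibition. The next levels were 82.2% in CBFA2T3 on chromosome 16 and 81.8% in FAM20C on chromosome 7. They rest on 5 of 96 and 5 of 84 CpGs.

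Resistant windows held more CpGs than other windows. They had a median of 15 shared CpGs (quartiles 9 and 25), against 11 (7 and 16), and the median was higher on all 22 chromosomes. In the hg38 sequence, counted whether listed or not, the medians were 20 and 11 CpGs. The ratio of observed to expected CpGs, which corrects for base composition, had medians of 0.41 and 0.26, and GC content had medians of 44.1% and 42.8% with upper quartiles of 54.9% and 47.5%. The share resistant did not follow GC content throughout, with 1.13% under 40% GC, 0.829% from 45% to below 50% and 8.07% at 60% or more. The median DNMT1 inhibitor level of windows in that last class was 27%. Windows at 50% GC or more whose ratio was 0.6 or more, as in CpG islands, made up 13.9% of resistant and 0.526% of other windows. These shares and medians carry no test, since windows of 1 library per group are not replicates of a condition.

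The share of windows that were resistant was 0.849% at 5 to 10 shared CpGs, 1.10% at 11 to 20, 2.096% at 21 to 30, 6.49% at 31 to 50 and 35.2% at 51 or more. The median level after DNMT1 inhibition over all windows at 80% or more went from 24.1% in the first of these classes to 44.9% in the last, while the DMSO median went only from 90.2% to 91.5%. Windows with few shared CpGs were still the larger part by number. Windows of 5 to 20 shared CpGs made up 4177 of the resistant windows, of which 2013 had at most 10. Not all of these are sparse in sequence, since resistant windows had a median of 20 CpGs in hg38. In 14.5% of resistant windows fewer than 50% of these CpGs were shared. Coverage moved with CpG number too, with medians of 30.7 reads in the first class and 22.3 in the last. When only CpGs of at least 20 reads were used, the median number of shared CpGs was 8 in resistant and 8 in other windows, and the median number in the hg38 sequence was 17 and 12.

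**Figure D3:**
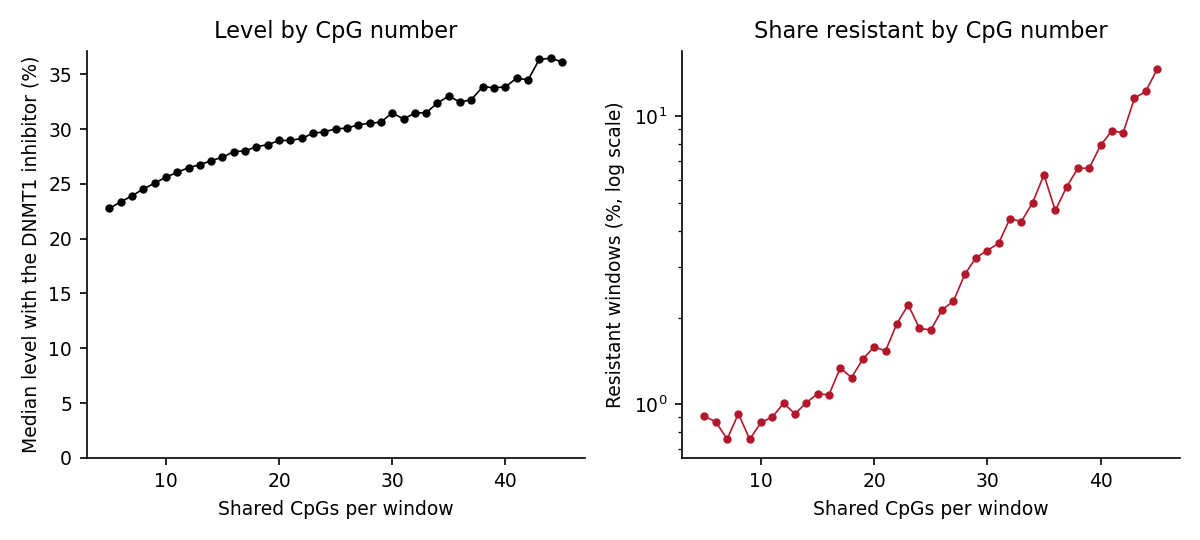
Windows at 80% or more in NonDiff by their number of shared CpGs (horizontal axis), for each number with at least 200 windows. The left panel shows the median level after DNMT1 inhibition (percent) and the right panel the share of windows that were resistant (percent, log scale). The median goes from 22.8% at 5 CpGs to 36.1% at 45 CpGs, and the share from 0.908% to 14.6%.

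Close spacing went with higher levels between CpGs inside the windows too. CpGs with another shared CpG fewer than 5 bases away made up 31.5% of CpGs in resistant windows and 12.6% in other windows. In other windows, which were chosen for low levels, such CpGs still read 41.1% after DNMT1 inhibition, and CpGs whose nearest neighbour was 50 to 99 bases away read 19.9%. In resistant windows these levels were 65.2% and 34.6%. CpGs with no neighbour within 100 bases were not lower still, at 21.4% in other and 37.9% in resistant windows. In DMSO the corresponding levels were 93.1% and 85.3% in other windows, and 94.3% and 88.5% in resistant windows.

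The bases next to the CpG differed as well. CpGs with C or G on both sides made up 42.4% of CpGs in resistant windows and 29.2% in other windows, and CpGs with A or T on both sides 12.7% and 21.4%. With the DNMT1 inhibitor, the first kind read 61.5% in resistant and 34.8% in other windows, and the second kind 41.6% and 20.1%. CpGs with A or T on one side lay between them in both sets, at 52.3% and 27.3%. Flanking bases go together with GC content and CpG spacing, and their separate parts were not tested.

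Tandem repeats were 9.92 times as frequent in resistant windows. A window was counted as a tandem repeat when at least 30% of its 12-base words occurred more than once in it. This was so for 391 resistant windows (6.10%) and 0.615% of other windows, with a higher share among resistant windows on all 22 chromosomes. At 5 to 10 CpGs the shares were 3.18% and 0.444%, and at 51 or more they were 24.2% and 16.8%. The repeat shift was sought from 2 to 400 bases by the share of matching bases, a longer shift being taken only when it matched clearly better. It had a median of 41 bases, and was 20 to 79 bases in 297 of the 391 windows. This shift can be a multiple of the repeat unit. The median level of these windows was 92.6% in DMSO and 55.5% after DNMT1 inhibition, and 51.2% of them lay within 2 Mb of a chromosome end.

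Read from the repeats, 21.7% of windows with at least 60% of repeated words were resistant, and 1.11% of windows with under 5%. Reads from tandem and other repeated sequence can be placed at the wrong copy or not placed at all. Fewer than 50% of the CpGs in the hg38 sequence were listed in all tables in 14.5% of resistant windows and in 1.87% of other windows. In the AHRR window with the second highest level among windows of 10 or more CpGs, on chromosome 5 (358001 to 359000), 11 of 92 CpGs were listed. With at least 80% of CpGs listed in all tables, an alternative chosen after the data were seen, 4499 resistant windows were left, 0.979% of such windows, and their median of 15 CpGs compared with 11.

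Sequence present in many copies was also more common. In 10.8% of resistant and 4.01% of other windows, at least 50% of the 24-base words occurred 20 or more times on chromosomes 1 to 22. At 31 to 50 shared CpGs this share was 13.6% and 13.7%, and at 51 or more 3.53% and 4.87%, so the difference lay in windows with fewer shared CpGs. A few words are shown, chosen after the values were seen from words held by 20 or more resistant windows. They are among the words with the highest share of resistant windows among all windows that hold them. Their counts in resistant against other windows thus follow from the choice and are no result. They are given only as sequence that recurred among resistant windows on many chromosomes (capitals mark each CG).
first word: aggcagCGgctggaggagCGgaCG
second word: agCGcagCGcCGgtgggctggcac
last word: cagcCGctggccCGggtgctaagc
The first was found in 21 resistant and 13 other windows, on 9 chromosomes for the resistant ones. The second was in 27 resistant and 29 other windows, on 17 chromosomes, and the last in 39 and 51, on 13 chromosomes. They occur 64, 136 and 176 times on chromosomes 1 to 22. The median DNMT1 inhibitor levels of the resistant windows with them were 55.3%, 53.8% and 54.3%.

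**Figure D4:**
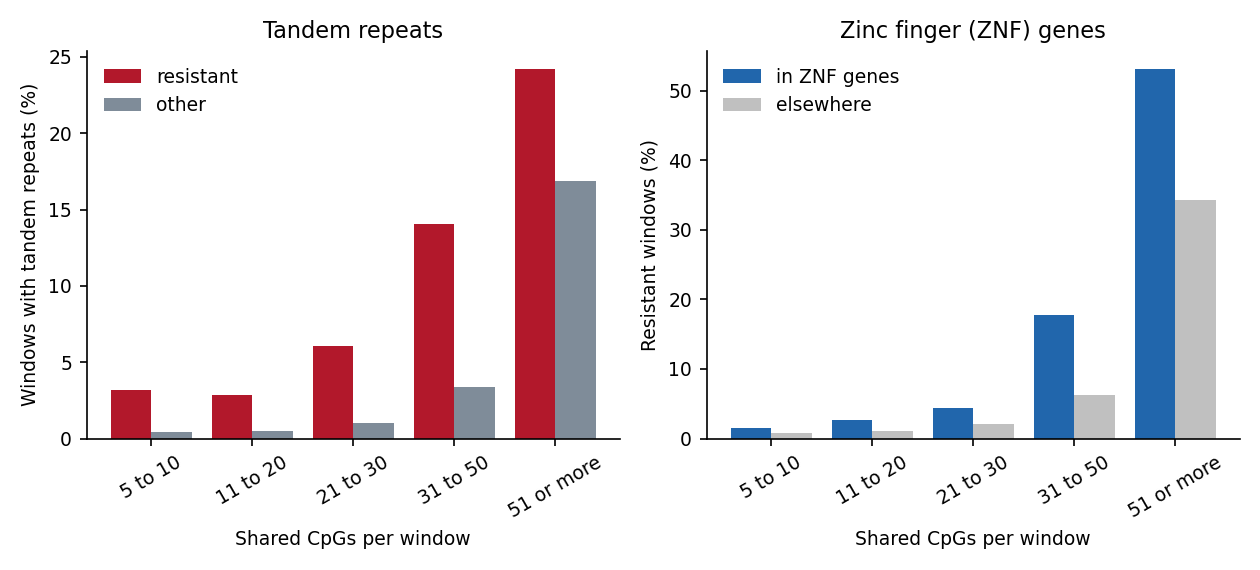
Left panel: share of windows with tandem repeats (percent) among resistant (red) and other (grey) windows, by number of shared CpGs. Right panel: share of windows that were resistant (percent) inside genes whose symbol starts with ZNF (blue) and elsewhere (light grey), by number of shared CpGs. The red bar is above the grey one in each class, from 3.18% against 0.444% to 24.2% against 16.8%, and the blue above the light grey, from 1.55% against 0.838% to 53.1% against 34.3%.

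Location in genes set resistant windows apart much less than CpG number. Protein-coding gene bodies overlapped 77.98% of resistant windows (4999) and 76.5% of other windows, and the order turned when a DNMT1 inhibitor level of 60% was required, at 76.1% and 76.5%. It was also the other way in windows of 5 to 10 CpGs, at 75.8% and 77.3%, of 31 to 50, at 72.4% and 76.0%, and of 51 or more, at 79.6% and 81.2%. Resistant windows were higher at 11 to 20 CpGs, at 81.6% and 76.2%, and at 21 to 30, at 78.3% and 73.5%. The gap was wider with CpGs of at least 20 reads, at 80.6% and 76.3%. With at least 80% of reference CpGs listed it was 82.2% and 77.0%. Introns without an exon or promoter held 63.3% and 58.1%, exons outside promoters 13.5% and 17.8%, and promoters, taken as 1000 bp before to 500 bp after the transcription start, 1.47% and 1.12%. Exons were less frequent among resistant windows in each class of CpG number. At 51 or more CpGs they overlapped 49.7% of resistant and 61.3% of other windows.

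Chromosome ends stood out. Windows within 1 Mb of an end made up 6.99% of resistant and 2.34% of other windows. Of windows within 1 Mb, 3.75% were resistant, from 1 to 2 Mb 2.70%, and from 10 to 20 Mb 0.915%. Beyond 20 Mb, where 4169 of the 6411 resistant windows lie, the share was 1.26%, so it did not go on falling with distance. Near the ends windows also held more CpGs, with a median of 18 within 1 Mb and 12 at 10 to 20 Mb. Within classes of CpG number the share near ends was higher among resistant windows as well, at 2.24% against 1.04% for 5 to 10 CpGs and 25.3% against 19.5% for 51 or more.

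By chromosome, the share of windows that were resistant went from 0.507% on chromosome 20, 0.757% on chromosome 22 and 0.763% on chromosome 17 to 1.92% on chromosome 13 and 1.99% on chromosome 18. Chromosomes 17 and 22, with low shares, had a median of 14 and 15 CpGs per window, and chromosomes 13 and 18 a median of 10, so the order of chromosomes did not follow CpG number.

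Resistant windows lay close to each other. Of windows at 80% or more that adjoin a resistant window, 13.5% were resistant, against 1.21% of those that adjoin an other window. At 2 kb the share was 6.91%, at 5 kb 4.27%, at 10 kb 3.29%, at 20 kb 3.46% and at 100 kb 1.88%, while around other windows it stayed between 1.19% and 1.25% at the distances tried. Adjoining windows can share read pairs. Most resistant windows stood alone even so, with 1055 (16.5%) in runs of 2 or more and 305 in the 84 runs of 3 or more. The share in runs of 2 or more was 9.26% with CpGs of at least 20 reads and 32.6% when a level of 40% was enough. It also depends on how common the chosen windows are. They were 1.29% of windows at 80% or more in the main setting, and 1.33% and 8.64% in these alternatives. The rise to 32.6% is thus no measure of closer clustering.

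Neighbours that missed the threshold were higher too. Non-resistant windows adjoining a resistant window had a median of 35.3% after DNMT1 inhibition, against 26.5% next to other windows. This gap shrank to 29.5% against 26.2% at 10 kb and 27.6% against 26.3% at 100 kb. In DMSO the same neighbours read 92.3% and 91.4% when adjoining, and 91.1% and 90.8% at 100 kb. Over 50 kb on either side, all windows included, the medians around resistant and other windows were 27.0% and 23.7% after DNMT1 inhibition and 81.7% and 79.6% in DMSO.

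**Figure D5:**
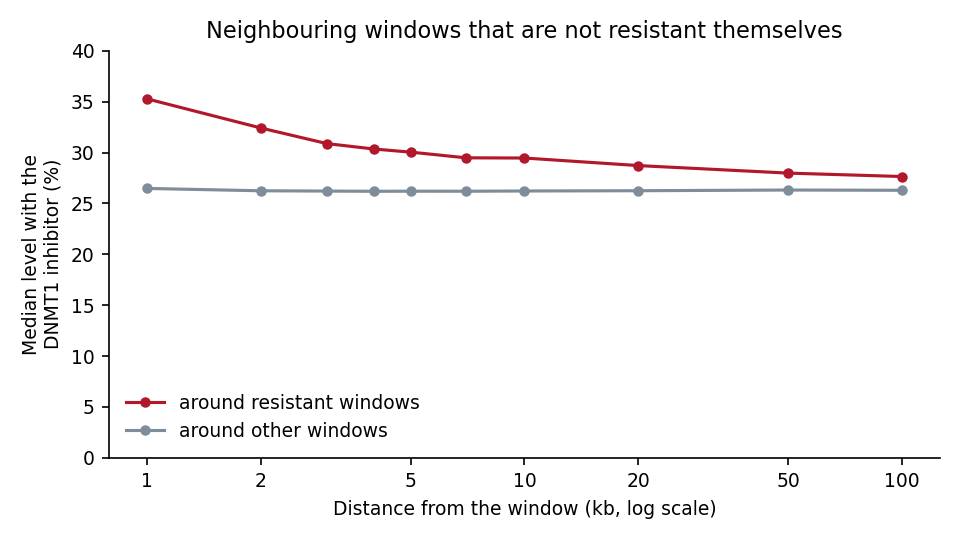
Median methylation level after DNMT1 inhibition (vertical axis, percent) of windows at 80% or more in NonDiff that are not resistant themselves, by distance (kb, log scale) from a resistant window (red) or an other window (grey). The red line goes from 35.3% at 1 kb to 27.6% at 100 kb, and the grey line stays near 26%.

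The 6 longest runs of resistant windows show both repeats and single-copy sequence. A run of 12 windows lies in BRF1, which encodes a subunit of the RNA polymerase III initiation factor TFIIIB, on chromosome 14 (105229001 to 105241000). Over 358 CpGs it read 93.5% in NonDiff, 93.3% in DMSO, 60.01% after DNMT1 inhibition (interval 59.0 to 61.0) and 92.4% after EED inhibition, and a median of 98.8% of the 12-base words in a window were repeated. The other run of 12 overlaps exons of PLEC, which encodes the cytoskeletal linker plectin, on chromosome 8 (143916001 to 143928000). It read 96.5%, 95.98%, 66.2% and 95.6% in the same order over 578 CpGs, with 0.607% of words repeated and a mean coverage of 17.5 to 19.01 reads.

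A run of 7 windows overlaps LINS1 and the pseudogene PRKXP1 on chromosome 15 (100553001 to 100560000), at 94.0% in DMSO and 57.2% after DNMT1 inhibition. ATP11A, a phospholipid-transporting ATPase gene, holds a run of 6 on chromosome 13 (112784001 to 112790000), at 92.9% and 56.9%. The run of 6 in RB1, the retinoblastoma tumour suppressor gene, lies on the same chromosome (48316001 to 48322000) over the pseudogene PPP1R26P1, at a CpG island known for imprinted methylation in other cells. Its 229 CpGs read 94.5% in NonDiff, 94.3% in DMSO, 58.2% after DNMT1 inhibition (56.7 to 59.6) and 93.2% after EED inhibition. The run of 6 in ZNF721, a zinc finger gene on chromosome 4 (464001 to 470000), held only 91 CpGs and read 94.5% in DMSO and 53.5% after DNMT1 inhibition. All 6 runs were over 50% as a whole because each window of a run was.

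Among bins of 1 Mb, 1712 of 2751 held a resistant window and 118 held 10 or more, with 1679 windows in these. The fullest was the end of the long arm of chromosome 18 (79000001 to 80000000), with 70 resistant of 538 windows (13.01%). It holds ATP9B with 22 of 252 windows resistant, CTDP1 with 15 of 30, KCNG2 with 7 of 35 and SLC66A2 with 12 of 38. These genes were named after their values were seen. CTDP1, which encodes a phosphatase of the RNA polymerase II tail, had the highest share of any protein-coding gene with at least 20 windows. Its resistant windows read 96.0% in NonDiff, 95.1% in DMSO, 56.5% after DNMT1 inhibition and 94.5% after EED inhibition. Mean coverage in that bin was 29.6 reads in DMSO, 31.6 after DNMT1 inhibition, 27.1 in NonDiff and 24.2 after EED inhibition. The next bins were the first Mb of chromosome 4, with 46 of 390 windows, and of chromosome 7, with 45 of 392.

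A resistant window was found in 2688 of 15163 protein-coding genes that had a window at 80% or more, and 5 or more in 203 genes. Long genes lead a count of this kind, so the number of windows at 80% or more is given with each. PRKAR1B, a regulatory subunit gene of protein kinase A on chromosome 7, had the most with 30 of 161. Its resistant windows read 92.6% in DMSO and 53.6% after DNMT1 inhibition. ATP9B and ATP11A, which encode related phospholipid-transporting ATPases, had 22 of 252 and 17 of 176. ERC1, a scaffold protein gene, had 17 of 407, and MAD1L1, a spindle checkpoint gene, 16 of 378, with the overlapping ENSG00000286192 at 16 of 385.

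The 15 genes with the most resistant windows also held genes of other functions. EHMT1, a histone H3 lysine methyltransferase gene, had 15 of 211, which read 94.4% in DMSO and 56.7% after DNMT1 inhibition. MBD5, of the methyl-CpG-binding domain family, had 15 of 233. STAG1, a cohesin subunit gene, had 15 of 311, and ZRANB3, a DNA translocase gene that acts at stalled replication forks, 16 of 287. BRF1 had 15 of 92, RASA3, a Ras GTPase-activating protein gene, 15 of 131, RTTN, a centriole gene, 15 of 125, and GAK, a kinase gene of clathrin uncoating, 14 of 78. Over these 15 genes the level of resistant windows after DNMT1 inhibition lay between 53.0% in RTTN and 58.5% in BRF1.

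Promoters of 85 protein-coding genes were overlapped by a resistant window. Levels are those of the whole window, which can reach beyond the promoter. The highest level was at RGPD1 on chromosome 2 (86942001 to 86943000), with 90.4% in NonDiff, 93.6% in DMSO, 72.9% after DNMT1 inhibition (68.5 to 76.8) and 91.4% after EED inhibition over 33 of 135 CpGs. RGPD3 and RGPD4, at 67.5% and 66.0% after DNMT1 inhibition, belong to the same gene family, whose copies are nearly identical, and reads may be placed at the wrong copy, which makes these values uncertain. KCNV2, a potassium channel gene, read 95.9% in DMSO and 71.1% after DNMT1 inhibition (68.6 to 73.4) over 67 CpGs on chromosome 9 (2718001 to 2719000). That window lies after the transcription start at 2717510 and only touches the end of the promoter. Its level is thus mostly that of gene sequence beyond the promoter. TDRD12, which acts in the germline pathway against transposons, read 97.9% and 70% (60.9 to 77.8) over 8 CpGs on chromosome 19 (32720001 to 32721000).

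The other promoters of the highest 10 were those of HUS1B at 65.6% after DNMT1 inhibition, VPS54 at 64.5%, OR11H4 at 64.1%, PLPP2 at 63.3% and CATSPER2, a sperm calcium channel gene, at 62.9%. In DMSO these 5 lay between 85.2% and 97.9%. VPS54 and OR11H4 rested on 6 and 5 CpGs.

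Gene lists were compared with the 1.29% of all windows at 80% or more that were resistant and with the median DNMT1 inhibitor level of other windows, 26.0%. Zinc finger genes whose symbol starts with ZNF encode DNA-binding proteins, many of which carry a KRAB domain that recruits silencing complexes. In these 504 genes, 240 of 7692 windows were resistant (3.12%), and the median level of their windows was 31.4%. In each class of CpG number the share was above that of windows elsewhere, for instance 2.73% against 1.07% at 11 to 20 CpGs. On chromosome 19, where many of these genes lie in clusters, 112 of 2714 windows were resistant (4.13%) against 0.931% elsewhere on the chromosome, with median levels of 34.5% and 24.6%. On other chromosomes the shares were 2.57% and 1.27%. ZNF721 had 10 of 61 windows resistant, ZNF28 8 of 43 and ZNF107 5 of 28. Genes of this family resemble each other in sequence.

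In the ZSCAN and ZKSCAN zinc finger genes 8 of 381 windows were resistant, 2 of them in ZKSCAN5. Imprinted genes had 25 of 791, with 9 of 138 in RB1, 5 of 62 in UBE3A and 4 of 120 in IGF2R, and a median level of 26.2%. Germline genes had 10 of 294, including 3 of 3 in SYCE1, a synaptonemal complex gene, and 1 of 6 in DAZL. The HOX genes had few methylated windows, and 3 of 37 were resistant, all of them in HOXA3 and 2 also in HOXA5. Clustered protocadherins had 2 of 6, histone genes 3 of 91, which lie in H3-4, H3-5 and H3C6, and olfactory receptors 2 of 189. The median level of all windows in a list was 30.9% for ZSCAN and ZKSCAN genes, 29.0% for protocadherins and 27.9% for olfactory receptors. It was below that of other windows for histones at 25.2%, germline genes at 24.9% and HOX genes at 22.6%, although their shares of resistant windows were above 1.29%.

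The DNA methylation machinery had 5 of 701 windows resistant (0.713%), of which 2 were in TET2 and 1 each in MBD2 and MBD3. Polycomb genes had 8 of 698 (1.15%), with 1 of 44 in EED itself. Globin genes of the beta cluster and regulators of fetal haemoglobin together had 5 of 855 (0.585%). These include 2 of 60 in the annotated body of HBG2 and 2 of 52 in that of HBE1, whose annotated transcripts overlap over much of the locus. Erythroid markers had 3 of 309, 2 of them in RHAG and 1 in EPB42, and markers of other blood lineages had none of 64. The median levels of these 5 lists were 24.9%, 26.1%, 24.4%, 20.7% and 23.7% in the order given.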

How the data were processed

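Whole-genome bisulfite sequencing gave 4 libraries of HUDEP-2 cells, 1 per group. Per the submitters' processing notes, Trim Galore 0.6.7, cutadapt 4.1, Bismark, Bowtie2 2.1.0 and methylKit were used with hg38. Removal of duplicates is not given in the sources used here, and unremoved duplicates would make reads less independent. Each table deposited by the authors gives the coverage of a CpG as a count of reads, both strands merged, with no CpG under 10 reads. The deposited percent of reads with C, rounded to 1 decimal, times coverage gave the methylated reads by rounding. Above 1000 reads, which concerns 1758 to 2046 CpGs per library, that number is approximate.

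Reads were summed over windows of 1000 bp. Fisher's exact tests, Wilson intervals and figures were made with Python 3.11.15, scipy 1.17.1, pandas 2.3.3, numba 0.67.0 and matplotlib 3.10.9. The Fisher code was tested on simulated data for the EED inhibitor against DMSO: of 1861567 windows, 200 were lowered to 40% of their level, 99.5% of these were called, and no unchanged window was. Reads were drawn independently, so this is no general sensitivity. Genes came from GENCODE 44, with the MANE Select or otherwise Ensembl canonical transcript. Sequences are from hg38, which marks no repeats in the copy used, so repeats were described by repeated words of 12 bases in a window and of 24 bases over chromosomes 1 to 22. The latter were counted by a hash, which can add chance matches.

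The windows, gene lists and tests were chosen with earlier results of these data known. Named genes were the 15 with the most resistant windows, the 10 promoters with the highest remaining level and up to 3 per list; named windows were the longest runs, the highest levels and those at the thresholds. The MAFG window had the lowest level among other windows of 51 or more CpGs with a printable stretch, with chromosome 8 left out, where a window in MFHAS1 was lower at 12.4%. Genes of the fullest 1 Mb bin, the KBTBD13 and MAFG windows and EED were named after their values were seen. Lists were zinc finger (ZNF), ZSCAN and ZKSCAN, protocadherin, olfactory receptor, HOX, histone, imprinted, germline, DNA methylation, Polycomb, beta globin cluster with fetal haemoglobin regulator, erythroid and other blood lineage genes.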

Additional observations from a re-analysis of the deposited data

How the results depend on the processing

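No paired analysis was possible because each group has 1 library, and none could be left out. Of 89 values recomputed under alternatives, 62 stayed within 1.5 times the count or within the counting interval of the value reported. Part of these could not move. The 40% and 60% limits, the start level from DMSO, unweighted means and the 80% listing change the choice of windows only. Counts of all windows called are fixed under them, so the 62 is no measure of stability. Requiring a DNMT1 inhibitor level of 40% gave 43073 windows, 8.64% of those at 80% or more in NonDiff. They had a median of 14 CpGs, 32.6% adjoining another such window and a DMSO median of 93.6%. Requiring 60% gave 624 windows, a median of 17 CpGs, 76.1% in gene bodies, 13.5% adjoining and 94.7% in DMSO. With CpGs of at least 20 reads these were 8 CpGs, 80.6%, 9.26% and 94.6%, and 6 windows were called between DMSO and NonDiff. With at least 10 CpGs per window the median was 20 CpGs and 18.9% adjoined. That minimum left fewer windows to test, and 20 were called for the EED inhibitor, 4 for DMSO against non-differentiated cells and 800218 for the DNMT1 inhibitor. Unweighted means gave 76.9% in gene bodies and a DMSO median of 94.1%. With at least 80% of reference CpGs listed, chosen after seeing the data, these were 82.2% and 94.4%, and 11.3% adjoined. Reads divided by the number of CpGs gave 0 calls for the EED inhibitor and 0 for DMSO against non-differentiated cells, in place of 262 and 24, and an adjusted p under 0.05 by Fisher's exact test gave 50 for the latter. No resistant window was called for the EED inhibitor under any of the 11 alternatives. Calls over all windows were too rare for any to be likely among resistant windows, and several alternatives reuse the same tests. Nothing is read from this absence. The cause of the shifts between alternatives was not tested beyond the fewer windows or reads that an alternative leaves. The minimum of 10 reads per CpG and the width of the intervals limit how sharply single windows are placed against 50%.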

Other observations

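Some windows kept 50% or more after DNMT1 inhibition without starting at 80%. There were 132 of them on chromosomes 1 to 22. The one nearest to 80%, in PCDH8P1, had 75 shared CpGs and read 79.9% in NonDiff, 74.0% in DMSO, 53.9% after DNMT1 inhibition and 79.6% after EED inhibition.

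The promoter of MEST, a gene known for imprinted methylation at its start, held 2 resistant windows on chromosome 7 and was named after its values were seen. The 64 CpGs of the first (130492001 to 130493000) read 91.1% in NonDiff, 92.6% in DMSO, 62.4% after DNMT1 inhibition and 91.5% after EED inhibition. The 43 CpGs of the second (130491001 to 130492000) read 84.8%, 82.2%, 59.0% and 87.3% in the same order.

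The level of the wider surroundings in DMSO had no simple relation to the share of resistant windows. That share was 2.19% where 50 kb on either side read under 50%, 0.916% at 60% to below 70%, and 1.53% at 80% or more.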
